A study of Rattus norvegicus with 4 samples.

Results

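Genes for chromatin modifiers and remodelers were compared between INS-1 832/3 cells grown in 3D bioprinted hydrogel and in 2D monolayer. The genes were chosen by their names, without use of any measured difference: the histone lysine demethylases (Kdm), methyltransferases (Kmt, Setd, Ezh), deacetylases (Hdac), sirtuins (Sirt), CHD and SMARC remodelers, ARID and bromodomain (Brd) proteins, DNA methylation enzymes (Dnmt, Tet), the acetyltransferases and coactivators Crebbp, Ep300 and Ncoa1 to Ncoa6, and corepressors, Ncor1 among them. Of 23360 gene symbols in the data, 110 matched these names, and 99 of them had a mean of at least 1 TPM (a transcript level that is corrected for length and sums to 1000000 in each sample). These 99 genes were analysed among the 11960 symbols that passed the same minimum.

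INS-1 832/3 is 1 rat insulinoma line that secretes insulin and carries a human insulin gene. Cells were either bioprinted in GelXA LAMININK 411, a gelatin methacrylate hydrogel with laminin-411 that is crosslinked with light, or seeded as a standard monolayer that received no hydrogel. All cultures were harvested on day 5 at passage 3, with 2 cultures in each group, and poly(A) RNA was sequenced. No other cell type was added. The groups differ in the gel and in the printing together, and these cannot be told apart.

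DNA in the nucleus is wound around histones, and the enzymes described here add, remove or read small chemical groups on the histone tails or on the DNA itself. Methylation of lysine 4 on histone H3 and acetylation mark active promoters and enhancers, while methylation of lysine 27 by Polycomb complexes and methylation of DNA at promoters accompany silent genes. Remodelers of the SMARC (BAF) and CHD families use ATP to slide or evict nucleosomes, and in beta cells such complexes work with transcription factors such as Pdx1.

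TPM were summed per symbol, scaled between samples with factors from 0.960 to 1.02, and compared as log2(TPM + 1) with limma. Fold changes on this scale, given throughout as log2 of 3D over monolayer, shrink toward 0 where the TPM are low. The depth of a sample is unknown from TPM, and counting error is therefore not given; 19355 to 19959 transcripts per sample were above 0. The smallest two-sided p of an exact permutation test with 2 cultures in each group is 0.333, so calls were made with the variance that limma moderates across genes. In bulk RNA, fewer cells of a type and less RNA per cell cannot be told apart. Of the 10 INS-1 markers 2 rose and 1 fell (Ins1 was at 112812 to 134741 TPM), and glucagon (Gcg), a marker of other endocrine cells, rose from 41.5 and 76.9 TPM to 123 and 152 TPM (adjusted p = 0.0217 in limma). Summed markers of fibroblasts (1.89 to 2.33 TPM), endothelium (1.07 to 1.65 TPM) and leukocytes (0.586 to 1.44 TPM) were low in every sample, with the defining markers Cdh5 and Ptprc listed at 0.

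The chromatin genes chosen by name rose more often than they fell in 3D culture. In most lists of partner genes outside the name rule, given below, falls outnumbered rises, as among all symbols tested (19.5% against 18.5%). Most of these lists are small and differ by few genes. Of the 99 genes, 35 rose and 6 fell at an adjusted p below 0.05, which is 35.4% and 6.06% of them. Among all symbols tested, 18.5% rose and 19.5% fell, 38.0% in either direction. The median log2 fold change of the 99 genes was 0.13, against -0.003 over all symbols tested, and single genes ranged from -0.67 for Hdac5 to 1.02 for Kdm7a. Both 3D cultures lay above both monolayer cultures for 56 genes, where 37.3% of all symbols tested did so, and below them for 18 genes, where 38.2% did so. In the other 25 genes the groups overlapped. Most changes were small, with 10 rises above 0.5 and 2 falls below -0.5 on the log2 scale, and for 19 of the 58 genes without a call the 95% interval lay within 0.25 of 0. With 1 culture left out in turn, the median of the 99 genes lay between 0.12 and 0.17. All 35 rising and all 6 falling genes kept their direction. The counts of calls dropped strongly without either 3D culture, among the 99 genes and over all symbols tested, and less without monolayer replicate 2. Without a 3D culture, the spread between cultures came from the monolayer pair alone. Of the 35 rising genes, 28 (80%) were lower in monolayer replicate 2 than in monolayer replicate 1. This held for 59.7% of all symbols called higher in 3D culture and 47.4% of all symbols tested. Over all 35 rising genes the median of replicate 2 minus replicate 1 was -0.07 on the log2 scale.

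**Figure D1:**
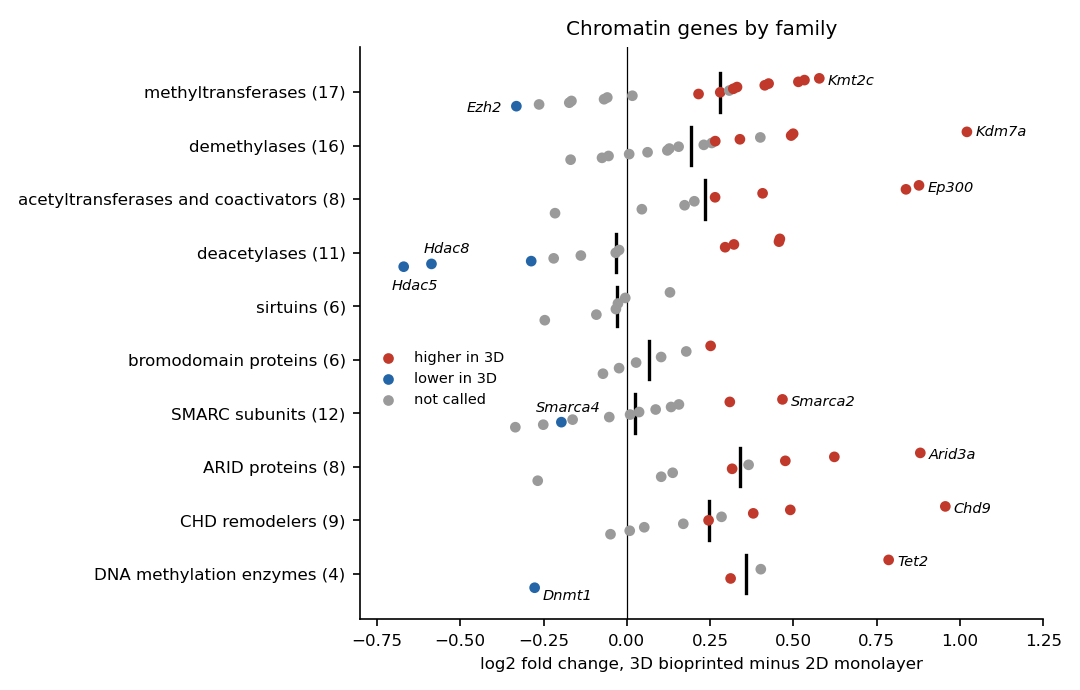
Log2 fold change (3D bioprinted minus 2D monolayer, on log2(scaled TPM + 1)) of the chromatin genes of 10 families, with the number of genes tested in parentheses; red and blue points passed an adjusted p of 0.05 in limma, grey points did not, and the black bar is the family median. Medians lie at 0.34 for ARID proteins and 0.28 for methyltransferases and at -0.03 for deacetylases and sirtuins.

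Members were spread over a wide range of levels, from 1.12 TPM for Hdac9 to 169 TPM for Hdac1 (mean of 4 cultures), with a median of 19.5 TPM against 16.1 TPM over all symbols tested. By level, of the 26 members under 10 TPM, 10 rose and 1 fell, where 20.3% of all symbols at that level rose and 8.97% fell. Of the 58 between 10 and 50 TPM, 23 rose and 1 fell, where 19.3% of all symbols at that level rose and 21.2% fell. Of the 15 members at 50 TPM or more, 2 rose and 4 fell, where 13.5% of all symbols rose and 34.9% fell. The members nearest to the minimum of 1 TPM were Hdac9, Arid3b (2.17 TPM) and Arid5a (2.72 TPM). Just outside it were Dnmt3b at 0.613 TPM, Smarcb1 at 0.550 TPM and Chd5 at 0.481 TPM. Smarcb1, the SNF5 subunit of BAF complexes, was listed at 0 in both monolayer cultures and at 1.21 and 0.994 TPM in the 3D cultures. It had 1 transcript in the data and no test, and whether its low values come from the annotation or from the cells was not tested. Tet1, Arid3c, Kdm4d, Kmt2a and Brd8dc were also under the minimum, and Dnmt3l, Hdac1l and Kdm5d were listed at 0 in all 4 cultures.

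The methyltransferases, the largest family, held the most rises, 9 of 17 genes with 1 fall, and their median was 0.28. These shares were 52.9% and 5.88%, against 18.5% and 19.5% of all symbols tested. The ARID proteins, the acetyltransferases and coactivators and the DNA methylation enzymes were close by share, with 50% rising in each. Of the 6 tested enzymes that methylate lysine 4 of histone H3, 4 rose, and their summed level went from 115 and 112 TPM in monolayer to 138 and 135 TPM in 3D culture. Kmt2b, the catalytic subunit of a COMPASS complex that acts at promoters, was at 12.5 and 12.4 TPM in the monolayer cultures and 18.8 and 18.2 TPM in the 3D cultures, with log2 fold change 0.53 ± 0.0632 (SE, adjusted p = 0.00538 by limma). Kmt2c, which methylates the same residue at enhancers, had 15.2 and 13.2 TPM in the monolayers and 22.4 and 20.8 TPM in the bioprinted cultures (0.58 ± 0.0885, adjusted p = 0.00870). Setd1a, which carries out much of the trimethylation of this lysine, was at 21.0 and 19.7 TPM and 30.5 and 28.7 TPM (0.51, adjusted p = 0.00635). In all of these the lower 3D culture lay above the higher monolayer culture. Setd1b rose by less, by 0.32. Kmt2d, the close relative of Kmt2c, was not called and was lower in both 3D cultures, at 41.7 and 40.1 TPM against 45.0 and 47.5 TPM. Setd7 was not called (0.31, adjusted p = 0.0517).

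Of the 17 Kmt, Setd and Ezh methyltransferases tested, Ezh2 alone was called lower. At an unadjusted p below 0.05 in limma 4 were lower, the others being Kmt2d, Kmt5a and Setd6 (-0.26, adjusted p = 0.0529). Ezh2, the catalytic subunit of Polycomb repressive complex 2, which methylates lysine 27 of histone H3 and is more abundant in dividing cells, stood at 34.7 and 35.0 TPM (monolayer) and 27.5 and 27.5 TPM (3D). The cultures of each group were almost equal, the groups did not overlap, and the log2 fold change was -0.33 ± 0.0554 (SE, adjusted p = 0.0104). Ezh1, its relative in non-dividing cells, was at 11.3 and 11.7 TPM and 10.4 and 11.6 TPM with overlapping groups. Kdm6a and Kdm6b, demethylases of the same lysine, both rose (Kdm7a, which also acts on it, is given below). Kdm6b measured 18.4 and 18.1 TPM in the monolayer and 26.2 and 26.2 TPM in the bioprinted cultures (0.50 ± 0.0583, adjusted p = 0.00527), with no overlap and almost no spread between replicates. Kdm6a rose by 0.34 (adjusted p = 0.0428), from 8.03 and 6.75 TPM to 9.71 and 9.45 TPM. Under 10 other processing settings (scaling, minimum TPM, pseudocount, variance estimate, replicate block, or the most abundant transcript alone) Kdm6a was called in 7, with an adjusted p of up to 0.111 in limma. Summed, the methyltransferases of lysine 27 went from 46.0 and 46.7 TPM to 38.0 and 39.0 TPM. Kdm6a and Kdm6b together, without Kdm7a, went from 26.4 and 24.9 TPM to 35.9 and 35.7 TPM.

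Among the enzymes that methylate lysine 20 of histone H4, Kmt5b and Kmt5c, which extend the mark to di- and trimethylation, rose by 0.33 and 0.43 (adjusted p = 0.0165 and 0.0169). Kmt5a, which adds the first methyl group and acts in the cell cycle, was the most abundant methyltransferase, and at 172 and 164 TPM in the monolayers and 152 and 147 TPM in the bioprinted cultures it was not called (adjusted p = 0.0636). Kmt2e, Setd2, the enzyme that trimethylates lysine 36 of histone H3, and Setd5 rose by 0.41, 0.28 and 0.22. Setd5 was called in 6 of the 10 other settings, with an adjusted p of up to 0.0935 in limma (0.0559 with the replicate number as a block), and Setd2 in 8, with an adjusted p of up to 0.195 when its most abundant transcript was tested alone.

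Among the 16 demethylases 5 rose and none fell (0 at an unadjusted p below 0.05 in limma as well), with a median of 0.19. These shares were 31.25% and 0%, against 18.5% and 19.5% of all symbols tested. Kdm7a, which removes dimethyl marks from lysines 9 and 27 of histone H3, had the largest log2 fold change of all 99 genes. It had 3.76 and 2.64 TPM in the monolayers and 8.17 and 6.78 TPM in the bioprinted cultures, with log2 fold change 1.02 ± 0.159 (SE, adjusted p = 0.00900 by limma). Both 3D cultures were well above both monolayer cultures, although the cultures of each group also differed. Kdm5a, which removes methyl groups from lysine 4 of histone H3, rose from 14.3 and 12.8 TPM to 18.8 and 20.1 TPM (0.49, adjusted p = 0.010), and Kdm5b, its relative, rose by 0.27 (adjusted p = 0.0343). Thus 2 of 5 tested demethylases and 4 of 6 tested methyltransferases of lysine 4 rose. The other demethylases of lysine 9, Kdm3a, Kdm3b, Kdm4a, Kdm4b and Kdm4c, were not called, at log2 fold changes from 0.06 to 0.40, and Kdm3a, at 0.40, had an adjusted p of 0.0586. The lysine 36 demethylases Kdm2a and Kdm2b were not called, at 0.007 and -0.07 (0 of them at an unadjusted p below 0.05), with 95% intervals that lay within 0.25 of 0.

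**Figure D2:**
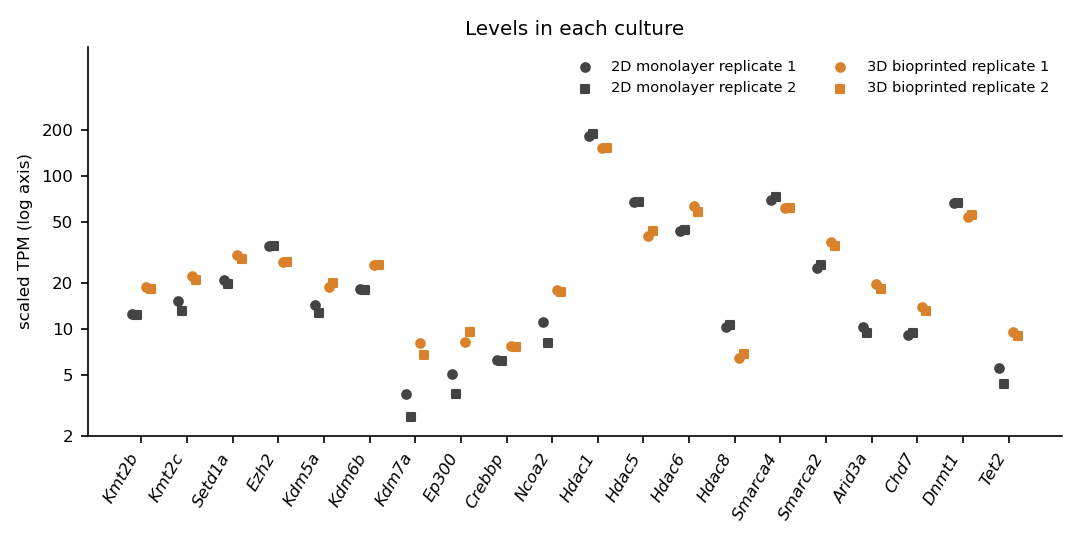
Scaled TPM (log axis) of 20 named chromatin genes in each of the 4 cultures, circles for replicate 1 and squares for replicate 2, dark for 2D monolayer and orange for 3D bioprinted. The genes drawn were all called, and no called gene overlapped between groups, so their separation follows from that choice. Ezh2, Hdac1, Hdac5, Hdac8, Smarca4 and Dnmt1 are lower in 3D culture and the others higher.

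Of the 8 acetyltransferases and coactivators, 4 rose and none fell (1 lower at an unadjusted p below 0.05 in limma, Ncoa5), with a median of 0.23. Among all symbols tested 18.5% rose and 19.5% fell. Ep300 and Crebbp encode p300 and CBP, closely related enzymes that acetylate histones at enhancers. Ep300 stood at 5.08 and 3.76 TPM (monolayer) and 8.27 and 9.52 TPM (3D), with log2 fold change 0.88 ± 0.142 (SE, adjusted p = 0.00977 by limma). Crebbp was at 6.28 and 6.21 TPM and 7.79 and 7.62 TPM (0.26 ± 0.0753, adjusted p = 0.0412). Both were separated without overlap, and Ep300, the lower of the pair in both monolayer cultures, was the higher in both 3D cultures. Ncoa2, a coactivator that brings p300 and CBP to nuclear receptors, rose from 11.1 and 8.07 TPM to 18.0 and 17.4 TPM (0.84, adjusted p = 0.0102). Its relatives Ncoa1 and Ncoa3 were not called (0.20 and 0.04). Ncoa4, better known as the receptor that carries ferritin to lysosomes than as a chromatin factor, rose from 35.5 and 34.0 TPM to 47.1 and 45.6 TPM (0.41, adjusted p = 0.00748). Crebbp was called in 8 of the 10 other settings, with an adjusted p of 0.0582 with the replicate number as a block and 0.0980 with no minimum TPM in limma.

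The 11 deacetylases moved in both directions, with 4 rises, 3 falls and a median of -0.03, and they held 3 of the 6 falls among all 99 genes. Their shares were 36.4% and 27.3%, against 18.5% and 19.5% of all symbols tested. Hdac1, the most abundant chromatin gene and a catalytic subunit of the NuRD, SIN3 and CoREST complexes, measured 184 and 189 TPM in the monolayer and 153 and 152 TPM in the bioprinted cultures. The groups did not overlap, and the log2 fold change was -0.29 ± 0.0517 (SE, adjusted p = 0.0122). Hdac8, of the same class, was at 10.4 and 10.7 TPM and 6.43 and 6.92 TPM (-0.59 ± 0.0766, adjusted p = 0.00623). Their relatives Hdac2 and Hdac3 were not called, and Hdac2 was lower in both 3D cultures (86.7 and 90.3 TPM against 80.9 and 79.7 TPM). The summed level of these class I enzymes was 326 and 338 TPM in the monolayers and 284 and 286 TPM in the bioprinted cultures.

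Hdac5 had the largest fall of the 99 genes. Hdac5, a class IIa enzyme that shuttles between nucleus and cytoplasm and represses MEF2 targets, had 68.1 and 68.1 TPM in the monolayers and 40.9 and 44.0 TPM in the bioprinted cultures, with log2 fold change -0.67 ± 0.0611 (SE, adjusted p = 0.00409 by limma). The monolayer cultures were almost equal and both 3D cultures lay far below them. Hdac4, of the same class, rose from 3.70 and 2.92 TPM to 4.80 and 4.98 TPM (0.46, adjusted p = 0.0321), but Hdac5 remained the more abundant, and the class went from 82.9 and 81.5 TPM to 55.6 and 59.8 TPM. Both class IIb enzymes rose. Hdac6, which deacetylates tubulin in the cytoplasm, was at 43.6 and 44.4 TPM and 63.7 and 58.1 TPM (0.46 ± 0.0658, adjusted p = 0.00748), and Hdac10 rose by 0.32. Hdac11, the only class IV enzyme, rose by 0.29.

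No sirtuin, the NAD-dependent deacylases, was called (0 of 6 in limma, also at an unadjusted p below 0.05), against 38.0% of all symbols tested. Their log2 fold changes ran from -0.25 for Sirt4 to 0.13 for Sirt2, and the summed level was 127 and 129 TPM in the monolayers and 128 and 126 TPM in the bioprinted cultures. Sirt1 was not analysed here. The corepressor Ncor1, which holds Hdac3 at silenced nuclear receptor targets, was not called either, at 0.12. Of the bromodomain proteins, which read acetylated histones, Brd1 alone rose, from 20.7 and 21.1 TPM to 25.6 and 24.6 TPM (0.25, adjusted p = 0.0259). Brd3, a BET protein, was at 0.03 and was not called.

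Of the 12 SMARC subunits 2 rose and 1 fell (16.7% and 8.33%, against 18.5% and 19.5% of all symbols tested), and 9 were not called. The 2 ATPases that drive BAF complexes changed in opposite directions. Smarca4, which encodes BRG1, stood at 69.4 and 73.1 TPM (monolayer) and 61.7 and 62.3 TPM (3D), with log2 fold change -0.20 ± 0.0562 (SE, adjusted p = 0.0417 by limma). Smarca2, which encodes BRM, the alternative motor of the same complexes, was at 25.2 and 26.2 TPM and 37.0 and 34.9 TPM (0.47 ± 0.0625, adjusted p = 0.00652). Neither gene overlapped between groups, and Smarca4 stayed the more abundant in every culture. The sum of both was 94.6 and 99.3 TPM in the monolayers and 98.7 and 97.3 TPM in the bioprinted cultures, so that the ranges overlapped. The 6 tested core subunits Smarcc1, Smarcc2, Smarcd1, Smarcd2, Smarcd3 and Smarce1 were not called (1 higher and 1 lower at an unadjusted p below 0.05 in limma), and summed to 335 and 339 TPM against 343 and 346 TPM. Smarcad1, a remodeler outside BAF that acts at replication forks and heterochromatin, rose by 0.31 (adjusted p = 0.0492). The ISWI ATPases Smarca5 and Smarca1 were not called. The fall of Smarca4 was lost without scaling (adjusted p = 0.0657), without the intensity trend (0.0737), with a minimum of 5 TPM (0.0521) and with the replicate number as a block (0.0517), and the rise of Smarcad1 without scaling (0.0587), without the intensity trend (0.0639), with no minimum TPM (0.121) and with its most abundant transcript alone (0.0568).

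Of the 8 ARID proteins, 4 rose and none fell (1 lower at an unadjusted p below 0.05 in limma, Arid4a), with a median of 0.34. The shares over all symbols tested were 18.5% and 19.5%. Arid3a, a DNA-binding factor also known to bind E2F proteins, measured 10.3 and 9.42 TPM in the monolayer and 19.6 and 18.3 TPM in the bioprinted cultures, with log2 fold change 0.88 ± 0.0771 (SE). Its adjusted p of 0.00391 was the smallest of the 99 genes. Arid5a, an RNA-binding member that stabilises inflammatory mRNA, was low but separated, at 1.95 and 1.90 TPM and 3.80 and 3.23 TPM (0.62, adjusted p = 0.0127). Among the subunits that give BAF complexes their identity, Arid1a rose from 12.7 and 12.4 TPM to 15.9 and 15.9 TPM (0.32, adjusted p = 0.0162) and Arid2, of the PBAF complex, rose by 0.48 (adjusted p = 0.0260). Arid1b, the alternative to Arid1a, was not called (0.10).

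Of the 9 CHD remodelers, 4 rose and none fell (0 lower at an unadjusted p below 0.05 in limma), with a median of 0.25. Over all symbols tested 18.5% rose and 19.5% fell. In the group of Chd6 to Chd9, 3 of 4 rose. Chd7, which acts at enhancers and is mutated in CHARGE syndrome, had 9.14 and 9.46 TPM in the monolayers and 13.9 and 13.1 TPM in the bioprinted cultures, with log2 fold change 0.49 ± 0.0714 (SE, adjusted p = 0.00770 by limma). Chd9 was at 14.5 and 10.3 TPM and 18.9 and 31.9 TPM (0.96 ± 0.264, adjusted p = 0.0380), so the groups did not overlap but the 3D cultures were far apart. It was called in 6 of the 10 other settings, with an adjusted p of up to 0.137 in limma. Chd8 rose by 0.25 and Chd2 by 0.38 (adjusted p = 0.0396 and 0.0180). The NuRD ATPases Chd3 and Chd4 were among the most abundant members and were not called, at 0.05 and 0.009 (0 of 2 also at an unadjusted p below 0.05), with 161.6 and 161.4 TPM summed in monolayer and 164 and 166 TPM in the bioprinted cultures.

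The 4 tested DNA methylation enzymes also split. Dnmt1, which copies methylation to the new strand after replication, stood at 67.1 and 66.8 TPM (monolayer) and 54.4 and 55.8 TPM (3D) (-0.28 ± 0.0529, adjusted p = 0.0143). Dnmt3a, which methylates DNA de novo, was at 18.4 and 16.2 TPM and 21.8 and 21.6 TPM (0.31 ± 0.0800, adjusted p = 0.0312). Tet2, which oxidises methylcytosine in the first step of its removal, was at 5.56 and 4.39 TPM and 9.56 and 8.94 TPM (0.79 ± 0.116, adjusted p = 0.00808). Both 3D cultures were below both monolayer cultures for Dnmt1 and above them for the others. Tet3 was higher in both 3D cultures but was not called (0.40, adjusted p = 0.0772). Dnmt3a was called in 8 of the 10 other settings, with an adjusted p of 0.112 in limma when its most abundant transcript was tested alone.

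Levels of related genes were then set against each other within each culture, as ratios of TPM, for 20 pairs of paralogs of which 17 had both genes tested. These ratios are a description without a test. In 7 pairs both 3D ratios lay above both monolayer ratios, in 6 pairs below, and in 4 pairs, among them Smarcc1 to Smarcc2, Kdm4a to Kdm4b and Chd4 to Chd3, they overlapped. Separation was common in these data. For levels of single genes, both 3D cultures lay above both monolayer cultures in 37.3% of all symbols tested and below in 38.2%. The same share for ratios of other genes was not computed, so the counts of pairs are not read as a trait of paralogs. The ratio of Smarca4 to Smarca2 was 2.75 and 2.79 in the monolayers and 1.67 and 1.79 in the bioprinted cultures, a change of -0.68 on the log2 scale. Crebbp to Ep300 went from 1.24 and 1.65 to 0.941 and 0.800 (-0.72), and Ncoa1 to Ncoa2 from 1.75 and 2.17 to 1.22 and 1.18 (-0.69). In these, the gene that was lower in monolayer gained on the other. Kmt2c to Kmt2d went from 0.337 and 0.277 to 0.536 and 0.519 (0.79), and Hdac4 to Hdac5 from 0.0544 and 0.0429 to 0.118 and 0.113 (1.26), the widest change of the 17 pairs. Kdm6a to Kdm6b (-0.14), Smarca5 to Smarca1 (0.15) and Hdac1 to Hdac2 (-0.15) changed least among the pairs without overlap.

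**Figure D3:**
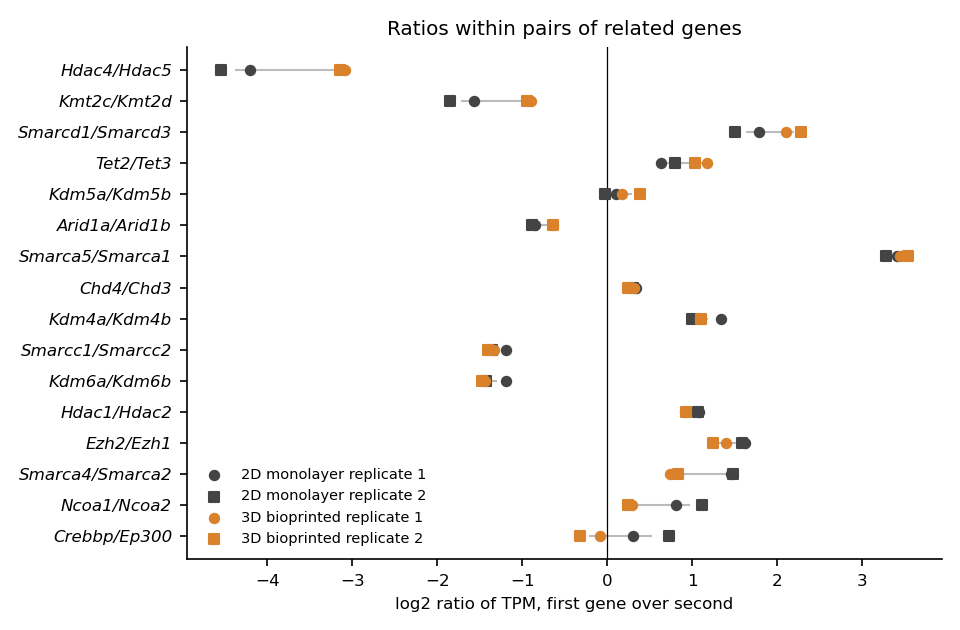
Log2 ratio of TPM of the first gene over the second in each culture for pairs of related chromatin genes, circles for replicate 1 and squares for replicate 2, dark for 2D monolayer and orange for 3D bioprinted; the grey line joins the group means. Hdac4/Hdac5 moves most upward (1.26) and Crebbp/Ep300 most downward (-0.72), while Chd4/Chd3 and Smarcc1/Smarcc2 overlap between groups.

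The authors quantified transcripts, and 39 of the 99 genes had more than 1. In several of them the transcripts did not move together. The gap between the 3D cultures for Chd9 lay in 1 transcript, ENSRNOT00000076830.2, which was listed at 0 in the other 3 cultures and at 12.8 TPM in 3D replicate 2. Its most abundant transcript alone, ENSRNOT00000075991.2, was at 8.67 and 5.45 TPM in the monolayers and 10.3 and 10.6 TPM in the bioprinted cultures (0.54, adjusted p = 0.0851), so the rise of Chd9 was not called on it. Arid3a had a transcript, ENSRNOT00000093168.1, that was listed at 0 in both monolayer cultures and at 5.17 and 4.43 TPM in the 3D cultures. Its most abundant transcript rose as well (0.46, adjusted p = 0.0120).

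For Kmt2c, ENSRNOT00000093625.1 was at 5.01 and 3.58 TPM in the monolayers and 9.67 and 9.73 TPM in the bioprinted cultures. The more abundant ENSRNOT00000010349.7 was at 10.2 and 9.57 TPM and 12.7 and 11.1 TPM, and was not called alone (0.25, adjusted p = 0.0843). For Kmt2d, ENSRNOT00000083354.1 was lower in both 3D cultures (38.2 and 41.9 TPM against 27.1 and 29.5 TPM). ENSRNOT00000077502.1 of the same gene was higher in both (6.82 and 5.58 TPM against 10.7 and 10.6 TPM), so that the gene's total hid transcripts of opposite direction. For Chd8, ENSRNOT00000022593.6 overlapped between groups and the higher total came from ENSRNOT00000087722.1, at 4.61 and 3.45 TPM in the monolayers and 6.17 and 6.74 TPM in the bioprinted cultures. Reads shared between transcripts of a gene are divided by an estimate, and how far that division moved these values was not tested.

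**Figure D4:**
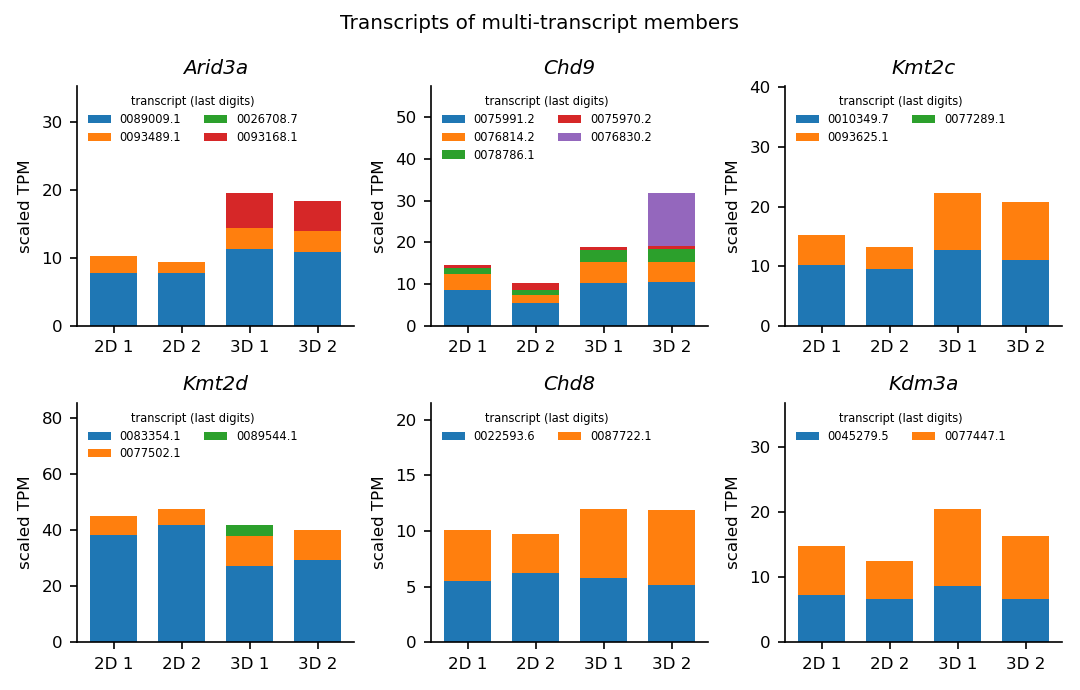
Stacked scaled TPM of the transcripts of 6 chromatin genes in each culture (2D 1 and 2D 2 are the monolayer replicates, 3D 1 and 3D 2 the bioprinted ones); colours are transcripts, named by their last digits. In Chd9 1 transcript at 12.8 TPM appears in 3D replicate 2 alone, and in Kmt2d the larger transcript is lower and the second higher in 3D culture.

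The 6 falling genes were Hdac5, Hdac8, Ezh2, Hdac1, Dnmt1 and Smarca4. Promoter windows (250 bases before to 50 after the annotated start, RefSeq, build GRCr8) were found for 83 of the 99 genes, for all 6 falling and 27 of the 35 rising ones. The CCAAT box, searched on both strands like every motif here, was found in 5 of the 6 falling genes, Hdac8 being without it, and in 7 of 27 rising genes. It was in 32 of the 83 members with a window, in 38.2% of 8792 tested genes and in 37.7% of all 27457 promoters. E2F-type letters (TTTGGCGC, TTTCCCGC or TTTCGCGC) were in Dnmt1 and Ezh2 among the falling genes, in 2 of 27 rising genes and in 4 of 50 genes without a call. In all they were in 8 of the 83 members (9.64%), against 3.66% of tested genes and 1.82% of all promoters. Matches to short letters are a description of these windows, and binding was not measured. The GC box (GGGCGG) was in 72.3% of members and 65.5% of tested genes, and the CRE (TGACGTCA) was in none of the 83 windows, against 3.30% of tested genes. The median number of CpG in a window was 25 for members and 22 for tested genes, with 26 for rising and 24.5 for falling members. The TATA box (letters TATAAA) was in 2 of the 83 windows and in 5.93% of tested genes. The E-box (letters CACGTG) was in 4 of the windows, against 9.79%, and the ETS letters CCGGAAGT in 2, against 8.86%. A window without a match lacks these letters, and no more is read from it.

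Promoters of 3 falling genes are shown with that of Smarca2, the rising alternative to Smarca4, 5′ to 3′ on the gene's strand, with the CCAAT box (on the other strand its letters read ATTGG) and E2F-type letters in capitals. The Smarca4 window (chr8:28443569-28443868, plus strand) has CCAAT starting at positions -171 and -116 from the start. The Smarca2 window (chr1:233617121-233617420, plus strand) has neither. The Ezh2 window (chr4:77687134-77687433, minus strand) holds 3 CCAAT boxes and E2F-type letters, and the Dnmt1 window (chr8:27762792-27763091, minus strand) holds CCAAT boxes of both strands that overlap, beside E2F-type letters on the reverse strand.
Smarca4: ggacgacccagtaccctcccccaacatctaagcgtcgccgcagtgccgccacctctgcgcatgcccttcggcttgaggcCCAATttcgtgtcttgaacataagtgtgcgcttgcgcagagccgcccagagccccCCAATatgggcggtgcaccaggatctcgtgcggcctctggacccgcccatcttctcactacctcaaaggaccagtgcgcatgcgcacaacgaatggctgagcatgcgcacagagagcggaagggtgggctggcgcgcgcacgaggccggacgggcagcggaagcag
Smarca2: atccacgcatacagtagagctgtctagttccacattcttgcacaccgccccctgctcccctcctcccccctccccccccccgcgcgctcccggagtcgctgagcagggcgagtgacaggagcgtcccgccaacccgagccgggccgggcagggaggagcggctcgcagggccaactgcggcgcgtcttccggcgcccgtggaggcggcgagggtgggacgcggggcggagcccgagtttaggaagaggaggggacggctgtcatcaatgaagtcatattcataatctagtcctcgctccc
Ezh2: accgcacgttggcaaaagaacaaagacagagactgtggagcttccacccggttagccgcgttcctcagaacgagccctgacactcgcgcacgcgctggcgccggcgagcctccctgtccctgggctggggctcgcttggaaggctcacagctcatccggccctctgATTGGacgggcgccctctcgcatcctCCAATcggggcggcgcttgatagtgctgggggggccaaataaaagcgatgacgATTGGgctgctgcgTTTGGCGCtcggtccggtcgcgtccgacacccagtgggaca
Dnmt1: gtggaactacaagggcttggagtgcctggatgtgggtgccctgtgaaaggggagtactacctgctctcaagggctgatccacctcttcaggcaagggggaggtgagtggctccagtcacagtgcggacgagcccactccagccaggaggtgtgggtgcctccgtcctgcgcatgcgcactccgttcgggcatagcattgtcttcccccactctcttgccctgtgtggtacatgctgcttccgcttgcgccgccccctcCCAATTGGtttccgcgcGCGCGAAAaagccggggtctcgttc

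Genes outside the name rule that work with these families were counted from the same fit. Among all symbols tested 18.5% rose and 19.5% fell. Rises outnumbered falls in the Polycomb list and in the NuRD and SIN3 list only. By list, 23.1% rose and 11.5% fell for Polycomb, 7.69% and 15.4% for BAF partners, and 0% and 20% for COMPASS partners. Of 26 Polycomb genes 6 rose and 3 fell, among them Phf1, an accessory subunit of Polycomb repressive complex 2 (24.6 and 26.8 TPM to 44.8 and 41.2 TPM, 0.72), and Phf19, a related subunit (9.68 and 9.81 TPM to 5.64 and 5.66 TPM, -0.69). Eed, a core subunit of the complex with Ezh2, fell by 0.40. Of 13 BAF partners 1 rose and 2 fell, Dpf1 at 0.37 and Phf10 and Ss18 at -0.38 and -0.18. Of 10 COMPASS partners of the Kmt2 and Setd1 enzymes none rose (2 higher at an unadjusted p below 0.05 in limma) and 2 fell. Dpy30, a core subunit of all these complexes, went from 129 and 135 TPM to 91.5 and 88.3 TPM (-0.55, adjusted p = 0.00445), while 4 of the enzymes rose. Pagr1, a partner of Kmt2c and Kmt2d, fell by 0.41.

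Of 17 partners in NuRD and SIN3 complexes 4 rose and 3 fell (23.5% and 17.6%, against 18.5% and 19.5% of all symbols tested). The falls with the smallest p were Sap30 (-0.83) and Mbd3 (-0.49), both of which work with Hdac1. For the lists that follow, 25% rose and 37.5% fell (MYST and GNAT), 25% and 33.3% (other methyltransferases), and 0% and 16.7% (DNA methylation partners). The lists are small, and these shares were not tested. Of 8 acetyltransferases of the MYST and GNAT families 2 rose and 3 fell. Hat1, which acetylates newly made histone H4, fell by 0.69 and Kat6a rose by 0.60. Of 12 other methyltransferases 3 rose and 4 fell, with Nsd1, a lysine 36 methyltransferase, at 0.72 and Prmt1, the main arginine methyltransferase, at -0.32. Of 6 DNA methylation partners none rose (2 higher at an unadjusted p below 0.05 in limma) and 1 fell. That was Uhrf1, which brings Dnmt1 to newly replicated DNA, from 42.1 and 38.3 TPM to 21.3 and 24.5 TPM (-0.79, adjusted p = 0.00510).

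All 18 proliferation markers fell, with a median of -0.39 and a range from -0.61 for Mcm3 to -0.19 for Mcm2. Their summed level was 1596 and 1599 TPM in the monolayers and 1194 and 1208 TPM in the bioprinted cultures. Hdac8, Ezh2, Hdac1, Dnmt1 and Smarca4 lay within that range of fold changes and Hdac5 below it. The part of cell division in these falls was not tested.

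**Figure D5:**
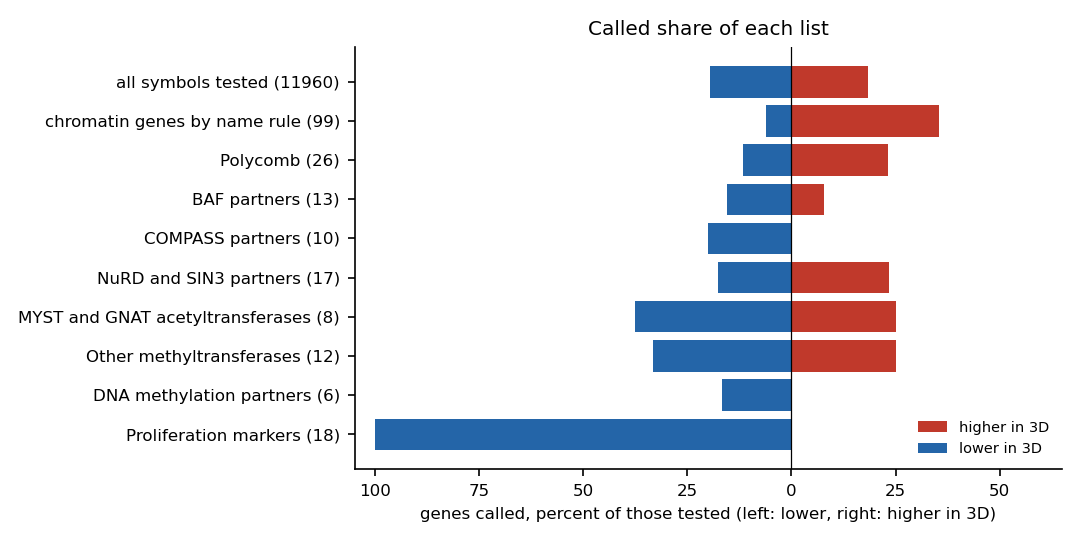
Share of tested genes called lower (blue, left) or higher (red, right) in 3D culture, in percent, for all symbols, the 99 chromatin genes and 8 lists of partner genes, with the number tested in parentheses. Of the chromatin genes 35.4% rose and 6.06% fell, of the proliferation markers 100% fell.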

How the data were processed

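Poly(A) RNA of 2 monolayer and 2 bioprinted cultures of INS-1 832/3 cells was sequenced in stranded libraries. The sample labels gave the group and the replicate number. Transcript levels were quantified by the authors with Salmon (version 1.2 in the submitters' processing notes, which also name FastQC 0.11.8 and build rn4) on a rat reference to which human insulin had been added, and deposited as TPM written with decimal commas. The counts behind the DESeq2 test of the study's methods were not used here, as TPM keep neither counts nor depth.

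The TPM of a symbol's transcripts were added up, and symbols whose mean reached 1 were tested. Between samples, values were scaled by an own implementation of the trimmed mean of M values without weights (trimming 30% of M and 5% of A on both sides). log2(TPM + 1) was tested with limma 3.58.1 (lmFit, eBayes with intensity trend, two-sided) in R 4.3.3, with Benjamini-Hochberg adjustment over 11960 symbols, with a threshold of 0.05. All printed TPM are scaled TPM. The steps were tested on simulated data with known changes. With 2 cultures per group and no depth, precision is that of the spread between cultures, and p-values measure only that spread.

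Genes were chosen by name. The families, enzyme groups by target, pairs, partner lists, motifs and promoters shown were chosen with earlier results of these data known, and no list was tested as a set. Genes named are the 3 with the smallest p in each family among called genes without overlap and with a mean of at least 2 TPM, the 3 largest rises and falls, both members of each pair, and the 2 with the smallest p in each partner list. Some others are named to complete an enzyme group or complex, and were chosen after their values were seen. Some genes that meet the rule, in families, pairs and partner lists, are not reported here by name. Promoters were matched by symbol to RefSeq windows of GRCr8, which gave names and sequences only. Protein lengths were not used here.

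Alternatives were the scaling, the minimum TPM, the pseudocount (0.1 and 5), limma's options, the replicate number as a block, the most abundant transcript alone, a threshold of 0.01 and each culture left out in turn.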

Additional observations from a re-analysis of the deposited data

How the results depend on the processing

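The count of 35 rising genes fell to 18 with no minimum TPM and to 12 at an adjusted p below 0.01, and lay between 28 and 38 under the other settings. The 6 falls became 2 at an adjusted p below 0.01 and lay between 5 and 8 otherwise. The median log2 fold change of 0.13 was 0.18 without scaling, where the median over all symbols was 0.04, and 0.10 with no minimum TPM. With 1 culture left out, rises ranged from 0 to 34, falls from 0 to 7 and the median from 0.12 to 0.17, and a group with 1 culture is then assumed to vary like the other group. With no minimum, the number of symbols tested was 16749. Of the alternatives other than leaving out a culture, 16 of the 35 rising genes kept their call in all and 5 of the 6 falling genes, Smarca4 being the exception. Calls were kept in 6 of the 10 such settings for Setd5, Chd9, Smarcad1 and Smarca4, in 7 for Kdm6a and Chd8, in 8 for Setd2, Crebbp, Dnmt3a, Hdac11 and Kdm5b, in 8 of 9 for Hdac4, which was not tested at a minimum of 5 TPM, and in 9 for Arid2, Brd1, Chd2, Hdac10, Kdm5a, Kmt2c, Kmt2e and Setd1b.

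By family, without counting omitted cultures or the stricter threshold, rises ranged from 5 to 10 for methyltransferases, 3 to 8 for demethylases, 3 to 4 for acetyltransferases and coactivators, 1 to 4 for deacetylases, 3 to 5 for ARID proteins, 1 to 4 for CHD remodelers, 1 to 2 for SMARC subunits and for DNA methylation enzymes, and 0 to 2 for bromodomain proteins, and the deacetylases had 3 falls in each. The family medians near 0 changed sign, those of SMARC subunits (-0.01 to 0.07), deacetylases (-0.07 to 0.009) and sirtuins (-0.07 to 0.01).

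Of the called genes, Chd8 alone changed direction, at -0.079 with its most abundant transcript alone. Of the 58 genes without a call, 46 kept their direction in all of these settings and 37 with any 1 culture left out. Chd4 was at -0.028 with no minimum TPM and from -0.00047 to 0.017 with 1 culture left out. Smarcc1 was at -0.0016 with its most abundant transcript alone and from -0.036 to 0.11 with 1 culture left out. Smarca1 ranged from -0.13 to 0.018, Kdm4b from -0.056 to 0.31 and Ezh1 from -0.13 to 0.0078 with 1 culture left out. The other uncalled genes that changed direction included Brd3 (-0.011 with its most abundant transcript alone), Kdm2a (-0.029 with no minimum TPM), Hdac3 (0.0093 without scaling) and 4 sirtuins. The cause was not tested.

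With the replicate number as a block, 37 genes rose and 5 fell, with a median of 0.13. Whether same-numbered cultures were handled together is not known from the labels. Over all symbols the correlation of their deviations from the group means was -0.006. Files without counts leave counting error unknown, which limits the lowest genes most.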
